A study of Mus musculus with 108 samples.

Results

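The nuclear genes of mitochondrial complex I were described in mouse liver, taken as every gene whose symbol starts with Nduf. There were 48 such genes among the 25125 symbols listed in each of 3 expression tables, counted from 74 transcripts. Of these, 36 encode subunits of the complex, 8 are assembly factors (Ndufaf1 to Ndufaf8) and 4 are others: Ndufa4, which carries a complex I name but is known as a subunit of complex IV, its paralog Ndufa4l2, and the near copies Ndufa11b and Ndufb4c. The 7 subunits that the mitochondrial genome encodes (the mt-Nd genes) were looked for, and 0 of 7 were listed in the tables.

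Messenger RNA was sequenced from the livers of male mice at 6 times of day (ZT2, ZT6, ZT10, ZT14, ZT18 and ZT22, in hours of zeitgeber time, where lights go on at 0). Each set held 3 replicate libraries a time, 18 in all, for 6 sets. There were 4 wild-type sets: C57BL/6J mice (here B6) on normal chow, B6 mice on a high fat and sucrose diet named D12492i (here HFD), 129S1/SvImJ mice (here 129) on chow, and 129 mice on HFD. The other two sets were both on HFD: livers labelled Errg-Cre, of strain 129, and livers of an Esrrg knockout (Esrrg LKO), labelled B6 and diet-induced obesity in the title, B6S1/SvImJ in the strain label and with the same D12492i diet in the diet label, described for the series as specific to hepatocytes. The columns of the Esrrg LKO table carry the name ErrgCre and were matched to these libraries by the table named in their labels, the time and the replicate number, so each Esrrg LKO value rests on that match. The promoter that drives Cre, the age of the mice and whether the replicates were separate mice are not given in the sources used here, and p-values therefore reflect only the variation among the libraries, which may be technical. The comparison of Errg-Cre with GFP control livers was not analysed here.

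Complex I (NADH:ubiquinone oxidoreductase) passes electrons from NADH to ubiquinone and pumps protons across the inner mitochondrial membrane. It is L-shaped: a matrix arm carries the flavin and the iron-sulfur clusters, and a membrane arm holds the proton pumps. Core subunits do the chemistry, accessory subunits surround and hold them, and assembly factors build the complex without staying in it. In liver it oxidises the NADH made by fatty acid oxidation and the citric acid cycle, and its nuclear genes are known targets of the coactivator PGC-1alpha (Ppargc1a) and of the estrogen-related receptors (Esrra, Esrrg).

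Expression levels are the deposited read numbers per transcript after quantile normalisation, which gives every library of a table the same set of values, so depth per library is unknown. Differences were tested with limma on log2(level + 1) over 11287 genes with a mean level of at least 10, averaged over the 6 times, with p-values adjusted by Benjamini-Hochberg over all genes and called under 0.05. The pseudocount makes these differences understate the change of genes at low levels. Of the 48 members, 45 passed that filter and 3 did not: Ndufa4l2 had medians of 0.47 to 1.64 in the wild-type sets, and Ndufa11b and Ndufb4c medians of 0 to 0.006. Reads of Ndufa11 and Ndufb4 could have been shared with these near copies. Subunit transcripts were short, with a median length of 749 bases against 3003 over all genes tested, and rich in G and C, with a median GC content of 52.9% against 49.8%. Assembly factor transcripts had a median GC content of 47.3%.

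Libraries differed in how their values depended on GC content. The GC slope of a library is the slope of its log2 deviations from the gene means on transcript GC, per 10 points of GC, computed without the members. It ran from -1.25 to 0.25 (median -0.42) in B6 chow and from -0.0011 to 0.46 (median 0.16) in B6 HFD. It ran from -0.99 to 0.74 (median 0.34) in 129 chow and from -0.04 to 0.48 (median 0.10) in 129 HFD. Mir6236, a transcript annotated within ribosomal RNA repeats, had median levels of 223, 8292, 2570 and 1104 in these 4 sets in the same order. All 8 hepatocyte markers were present in every set, but their summed level differed between sets: it had a median of 985058 (959226 to 1008000) in B6 chow and 314899 (105840 to 1096410) in B6 HFD, and of 800029 (320552 to 1093810) in 129 chow and 1039880 (598650 to 1110260) in 129 HFD. Its part in the diet and strain differences was not tested. Muscle, fat and kidney markers each summed to at most 54.4 in any wild-type library. That maximum was in the B6 chow library at ZT14 replicate 3, whose kidney markers (42.8) were 19.2 times the next highest of its set and which had 14.8% of tested genes under 1. It held the lowest level of its set for 12 of the 45 members tested, Ndufb7 and Ndufs8 at 0 among them. In the B6 HFD library at ZT22 replicate 3 the bile duct (cholangiocyte) markers summed to 9091, which was 12.8 times the next highest of its set. That library held the lowest level of its set for 36 of the 45 members tested. In bulk tissue, fewer cells of a type and less RNA per cell cannot be told apart.

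Levels per kilobase put the same subunit first in all 6 sets, but not the same one last. Ndufb9, a membrane-arm accessory subunit, was the highest, with means of 1055 to 1714 per kilobase. The lowest subunit was Ndufa11, a membrane-arm subunit, in both B6 sets, Errg-Cre and Esrrg LKO (12.6 to 72.8 per kilobase). In the 129 sets it was Ndufs5, a membrane-arm subunit, at 32.6 on chow and 24.5 on HFD. Assembly factors were lower, with set medians of 39.2 to 53.9 per kilobase against 318 to 471 for subunits. Ndufaf1 was the highest of them in the wild-type sets and Errg-Cre, and Ndufaf8 in Esrrg LKO.

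The start regions of the 5 subunits with the largest diet differences in B6 are printed here because these genes moved together. Each window runs from 250 bases before to 50 after a gene's start in RefSeq on GRCm38.p6, which is mm10, and 40 of the 48 members had one. Capitals mark a match to 1 of 4 motifs searched on both strands. Ndufb7 (chr8:83566508-83566807, + strand) holds an ETS element, Ndufa11 (chr17:56717512-56717811, + strand) an NRF1 element, Ndufs8 (chr19:3912725-3913024, - strand) an ETS element on the opposite strand, and Ndufs7 (chr10:80249199-80249498, + strand) a YY1 element. Ndufa13 (chr8:69901971-69902270, - strand) holds no match, and its RefSeq start is not that of the transcript counted.
Ndufb7: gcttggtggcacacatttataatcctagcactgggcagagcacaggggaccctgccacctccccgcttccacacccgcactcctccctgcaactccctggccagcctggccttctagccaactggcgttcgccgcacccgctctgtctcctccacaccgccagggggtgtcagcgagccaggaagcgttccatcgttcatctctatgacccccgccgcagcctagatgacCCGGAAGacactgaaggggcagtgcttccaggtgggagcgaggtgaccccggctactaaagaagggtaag
Ndufa11: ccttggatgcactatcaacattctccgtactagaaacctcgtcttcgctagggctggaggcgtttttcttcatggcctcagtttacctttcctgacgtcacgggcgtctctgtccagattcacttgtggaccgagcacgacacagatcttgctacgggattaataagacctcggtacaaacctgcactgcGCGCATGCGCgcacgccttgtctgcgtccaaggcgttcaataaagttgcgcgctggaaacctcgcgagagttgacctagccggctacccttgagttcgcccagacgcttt
Ndufa13: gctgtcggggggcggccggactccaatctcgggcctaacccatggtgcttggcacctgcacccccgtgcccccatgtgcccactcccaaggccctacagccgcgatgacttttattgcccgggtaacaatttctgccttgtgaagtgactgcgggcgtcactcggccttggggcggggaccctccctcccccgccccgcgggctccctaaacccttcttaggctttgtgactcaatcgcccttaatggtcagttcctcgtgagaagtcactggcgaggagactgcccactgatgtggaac
Ndufs8: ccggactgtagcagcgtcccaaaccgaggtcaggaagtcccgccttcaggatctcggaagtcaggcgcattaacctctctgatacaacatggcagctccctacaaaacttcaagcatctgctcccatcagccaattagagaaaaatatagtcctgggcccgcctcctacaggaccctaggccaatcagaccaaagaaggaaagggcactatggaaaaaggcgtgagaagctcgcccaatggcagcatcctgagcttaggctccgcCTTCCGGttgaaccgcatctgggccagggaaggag
Ndufs7: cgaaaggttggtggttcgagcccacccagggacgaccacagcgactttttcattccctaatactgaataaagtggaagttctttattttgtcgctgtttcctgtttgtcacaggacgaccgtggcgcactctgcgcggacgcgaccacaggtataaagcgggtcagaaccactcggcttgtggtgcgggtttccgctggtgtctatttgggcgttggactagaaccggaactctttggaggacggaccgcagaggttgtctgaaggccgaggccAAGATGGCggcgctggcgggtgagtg
The NRF1 element GCGCATGCG, whose 2 strands overlap in a full site, was found in 4 of 40 member windows (Ndufa11, Ndufa8, Ndufaf4 and Ndufaf5, or 10%) against 1.75% of all 32851 windows. The YY1 element AAGATGGC was found in 8 of 40 (20%) against 2.75%, and the ETS element CCGGAAG in 6 of 40 (15%) against 8.86%. The estrogen-related receptor element TCAAGGTCA was in 0 of 40 against 0.423%. The 5 windows printed hold 3 different elements or none.

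Diet was compared first in B6 livers. On HFD 18 of 36 subunits were higher than on chow and 7 were lower, and the 8 assembly factors went mostly the other way, with 1 higher and 5 lower. The background was wide: over all genes tested 27.5% were called higher and 32.7% lower (60.2% in all), so the share of subunits called lower (7 of 36) was below the background and the share called higher above it. The median difference was 0.18 on the log2 scale for subunits, -0.36 for assembly factors and -0.06 for all genes tested. Among matrix-arm accessory subunits 5 of 9 were higher and 1 lower, and among membrane-arm accessory subunits 9 of 19 and 3.

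The core subunits divided by gene. Ndufv1, which binds the flavin, had levels of 94.0, 277 and 656 (lowest, median and highest of 18) on chow and 321, 675 and 833 on HFD, a rise of 1.13 (SE 0.16, adjusted p = 2.2e-08). Ndufs8, an iron-sulfur subunit, had 0, 74.1 and 175 on chow and 117, 208 and 299 on HFD, a rise of 1.66 (SE 0.29, adjusted p = 3.9e-06). Ndufs7, which holds the last iron-sulfur cluster before ubiquinone, had 3.69, 32.1 and 94.0 against 33.2, 87.2 and 123, a rise of 1.35 (SE 0.23, adjusted p = 1.9e-06). In each of these the median at least doubled, and the ranges of the diets overlapped because some chow libraries reached HFD levels. Ndufv2 and Ndufs1, also iron-sulfur subunits, were slightly lower, at -0.21 (SE 0.06, adjusted p = 0.0016) and -0.16 (SE 0.06, adjusted p = 0.0094). Ndufs3 differed by 0.12 (SE 0.08, adjusted p = 0.23) and was not called.

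Among accessory subunits the largest rise was that of Ndufb7, a membrane-arm subunit. Its levels were 0, 20.3 and 71.7 on chow and 38.8, 121 and 171 on HFD, a rise of 2.71 (SE 0.35, adjusted p = 6.1e-09), higher at 6 of 6 times. Without the chow library at ZT14 replicate 3 the rises of Ndufb7, Ndufs8 and Ndufs7 were 2.42, 1.30 and 1.18, and with any 1 library left out 18 to 19 subunits were higher and 6 to 7 lower. Ndufa11 went from a median of 24.98 (4.196 to 93.5) to 100.03 (42.1 to 139), a rise of 1.87 (SE 0.24, adjusted p = 5.3e-09). Ndufa13, a membrane-arm subunit also known as GRIM-19, went from 126 (20.02 to 359) to 458 (161 to 688), a rise of 1.85 (SE 0.23, adjusted p = 2.7e-09). These were the largest of a graded series, since Ndufa7, Ndufa8, Ndufa2, Ndufa3, Ndufv3, Ndufs5, Ndufs6 and Ndufb8 also rose, by 0.64 to 1.19. The largest fall was that of Ndufab1, the mitochondrial acyl carrier protein, from 133 (82.9 to 188) to 79.5 (29.7 to 114), at -0.89 (SE 0.10, adjusted p = 4e-11) and lower at 6 of 6 times. Ndufc1, a small membrane-arm subunit, fell by 0.43 (SE 0.08, adjusted p = 1e-05). Ranges of the diets overlapped for all 45 members tested, while they were apart for 0.735% of all genes.

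Assembly factors that act on different modules fell alike. Ndufaf4, which works on the early matrix-arm intermediate, had levels of 266, 422 and 688 on chow and 121, 251 and 326 on HFD, a fall of 0.72 (SE 0.09, adjusted p = 1.8e-09). Ndufaf2, a late chaperone, had a median of 48.5 on chow and 31.4 on HFD, a difference of -0.75 (SE 0.16, adjusted p = 9.9e-05). Ndufaf5, which hydroxylates Ndufs7, differed by -0.65 (SE 0.19, adjusted p = 0.003), and Ndufaf1, which builds the membrane arm, by -0.40 (SE 0.08, adjusted p = 1.3e-05). Ndufaf6 fell by 0.33 (SE 0.13, adjusted p = 0.021). Ndufaf3 was the exception, at 0.71 (SE 0.23, adjusted p = 0.0069), and Ndufaf7 (-0.22) and Ndufaf8 (0.04) were not called. Of 11 other complex I assembly genes, 4 were higher (Ecsit 0.64, Acad9 0.42, Dmac2 0.33 and Foxred1 0.28) and 2 lower (Tmem70 -0.48 and Tmem126b -0.38). Subunits of complexes II to V were higher in 24 and lower in 8 of 41, with a median of 0.34.

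GC content ordered these differences. The 17 subunits with the higher GC content (53.3 to 60.7%) had 14 higher and 0 lower, with a median of 0.79. The 17 with the lower GC content (42.0 to 52.5%) had 4 higher and 5 lower, with a median of -0.06. Across the 34 subunits with a known GC content the diet difference and GC content had a Spearman rho of 0.75, a description across genes that share the same libraries. Ndufaf3, the assembly factor that rose, has the highest GC content of the 8 (56.0%), and GC slope and Mir6236 differed between the diets in the same libraries.

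**Figure D1:**
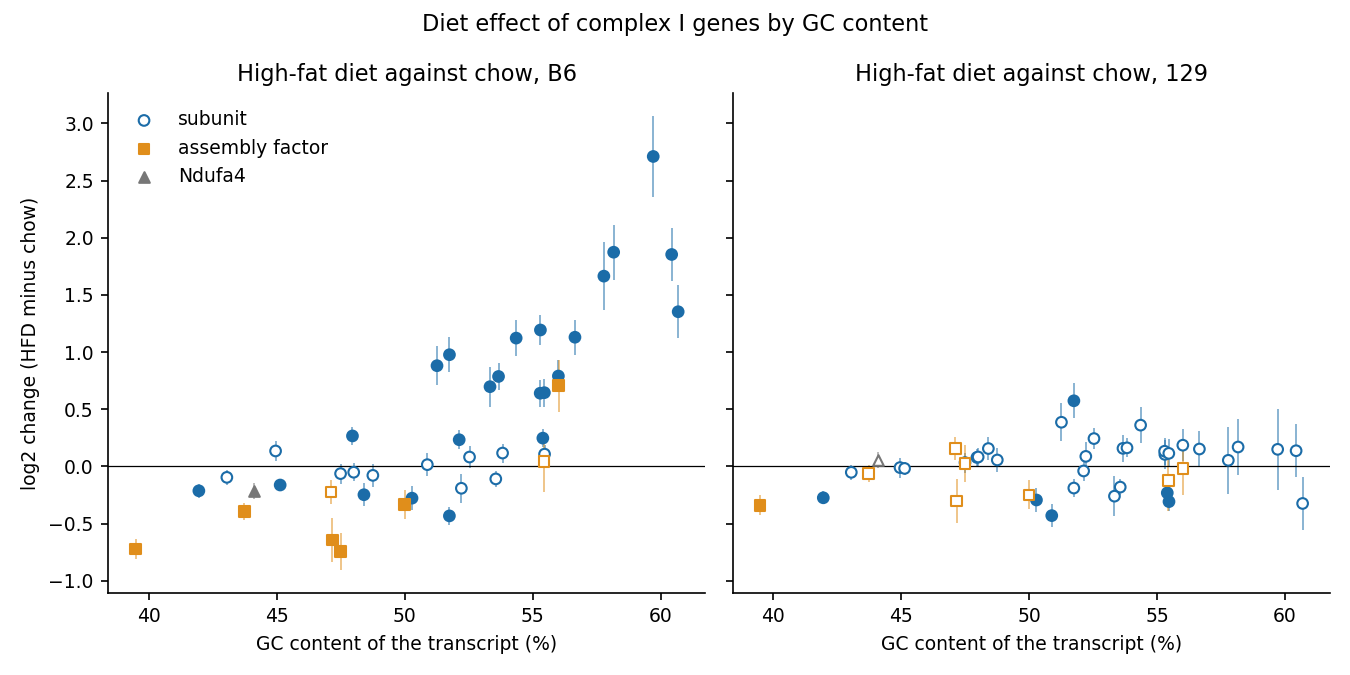
Difference between HFD and chow (log2, y axis) in B6 livers (left) and 129 livers (right) for each of the 43 members tested that have a known GC content, against the GC content of the transcript (percent, x axis). Filled points have a limma adjusted p under 0.05, open points do not, and bars are standard errors. In B6 the differences climb from -0.75 to 2.71 with GC content, and in 129 they stay between -0.43 and 0.57.

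Only 5 of the 18 chow libraries, from 3 of the 6 times, had a GC slope within the range of the HFD libraries. In those 5 Ndufb7 was at 46.4 to 71.7, and in the other 13 at 0 to 43.7, so the chow libraries split by GC slope with no overlap. With the comparison restricted to the libraries in the shared range (5 on chow and 12 on HFD), 0 subunits were higher and 1 was lower, Ndufab1 at -0.72 (SE 0.17, adjusted p = 0.039). The median of the subunits was then -0.16, no assembly factor was called, and 0.939% and 1.35% of all genes were called higher and lower. Ndufb7 differed by 0.52 (SE 0.25, adjusted p = 0.30), Ndufa7 by 0.41 (SE 0.21, adjusted p = 0.35) and Ndufv1 by -0.01 (SE 0.17, adjusted p = 0.98). This subset has fewer libraries, and was chosen after seeing the data. Of the 25 subunits called over all libraries, 10 had the other sign in the shared range, all of them higher on HFD before and none called there. With log2 Mir6236 as a covariate 1 subunit was higher, 1 lower and 0 assembly factors were called, with 2.05% and 2.96% of all genes. Mir6236 was itself higher on HFD in B6, by 5.50 (SE 0.51, limma adjusted p = 6.4e-13). The covariate therefore overlapped with diet, and this fit cannot tell them apart. With the GC and length trend removed 15 of the 34 subunits with a known GC content were higher and 9 lower, with 24.7% and 21.8% of all genes. Ndufb7 (1.77), Ndufa11 (1.24), Ndufa13 (0.94), Ndufs8 (0.99), Ndufv1 (0.61) and Ndufs7 (0.36) kept their calls at smaller differences. The part of GC slope and Mir6236 in the diet difference was not tested. Apart from the shared range, the call of Ndufa7 held in 17 of 17 alternatives and in 72 of 72 fits that each left out 1 library, which was true of no other of the 32 members called.

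**Figure D2:**
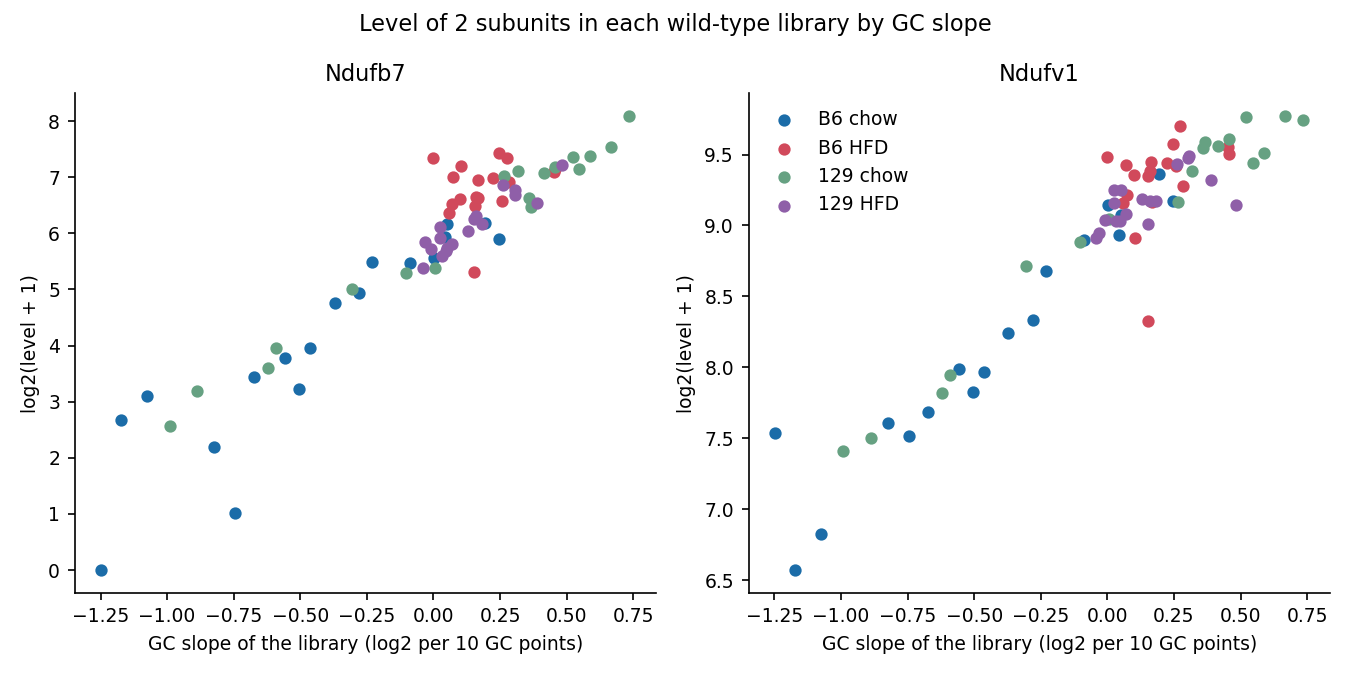
Levels of Ndufb7 (left) and Ndufv1 (right) in each of the 72 wild-type libraries (log2(level + 1), y axis) against the GC slope of the library (log2 per 10 points of GC, x axis), with the 4 sets by colour. Both genes climb with the slope in B6 chow, 129 chow and 129 HFD, and the B6 HFD libraries sit where the slopes are near or above 0.

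The high-GC subunits Ndufb7 and Ndufv1 were set against the GC slope of the library within each of the 6 sets. For Ndufb7 in B6 chow the correlation over 18 libraries was r = 0.90 and rho = 0.96 (permutation test with 100000 resamples, two-sided, adjusted p = 2.4e-05 and 3.4e-05 over 24 relations, from the smallest p these can give), and r = 0.89 without the 2 libraries farthest from the median. In 129 chow r was 0.99 and rho 0.97 (permutation adjusted p = 2.4e-05 and 3.4e-05), and 0.98 without those 2. In B6 HFD r was 0.26 and rho 0.31 (permutation adjusted p = 0.39 and 0.28), and 0.13 without those 2. Ndufv1 gave r = 0.96 in B6 chow, 0.98 in 129 chow and 0.34 in B6 HFD, with rho of 0.97, 0.92 and 0.48 (permutation adjusted p for rho of 3.4e-05, 3.4e-05 and 0.087). In 129 HFD, whose slopes spanned about as much as those of B6 HFD, Ndufb7 gave r = 0.92 and rho = 0.85 (permutation adjusted p = 2.4e-05 and 4.8e-05), and 0.91 without those 2. Ndufv1 gave r = 0.64 and rho = 0.64 there (permutation adjusted p = 0.0092 and 0.0094), and 0.83 without those 2. In Errg-Cre r was 0.90 for Ndufb7 and 0.86 for Ndufv1, with rho of 0.85 and 0.78 (permutation adjusted p for rho of 4.8e-05 and 0.00055). In Esrrg LKO r was 0.16 and 0.31, with rho of 0.08 and 0.25 (permutation adjusted p for rho of 0.77 and 0.39). The relation was past the threshold in 4 of the 6 sets, on chow and on HFD. The slope was computed without the members, but genes of high GC content are expected to follow it where slopes vary. The permutations also moved libraries across the 6 times. These relations therefore describe how closely the 2 genes shared the GC pattern of their libraries, and no cause was tested.

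Diet in 129 livers left most members uncalled. On HFD 1 of 36 subunits was higher and 6 were lower, 1 assembly factor was lower, and 10.9% and 7.45% of all genes were called higher and lower. The median difference of the subunits was 0.07 and that of all genes 0.04. Ndufa2, a matrix-arm subunit, had a median of 151 on chow and 191 on HFD and rose by 0.57 (SE 0.15, adjusted p = 0.0057). Ndufa12, which sits on the matrix arm where Ndufaf2 is replaced, had levels of 228, 271 and 352 on chow and 144, 203 and 242 on HFD, a fall of 0.43 (SE 0.10, adjusted p = 0.0012) found at 6 of 6 times. Ndufv2 had levels of 430, 573 and 729 on chow and 419, 464 and 505 on HFD, a fall of 0.28 (SE 0.06, adjusted p = 0.00045), also at 6 of 6 times. The falls were smaller than that of Ndufab1 in B6 (-0.89). That of Ndufa12 was as large as the fall of Ndufc1 in B6 (-0.43), and Ndufv2 fell by 0.21 in B6. In 129 Ndufv2 kept its call in 17 of 17 alternatives. Ndufb10 fell by 0.31 (SE 0.08, adjusted p = 0.0034), and Ndufa5, Ndufb9 and Ndufab1 fell by 0.29, 0.23 and 0.26. Ndufaf4 fell by 0.34 (SE 0.09, adjusted p = 0.0045), as it had in B6.

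The subunits that rose most in B6 were not called in 129, and their intervals were wide. Standard errors were the same in both strains, since the 4 wild-type sets share 1 estimate of spread per gene. Ndufb7 had levels of 4.95, 113 and 271 on chow and 40.7, 66.6 and 147 on HFD, a difference of 0.15 (SE 0.35, adjusted p = 0.83) with a 95% interval of -0.56 to 0.86. Ndufs7 differed by -0.32 (SE 0.23, adjusted p = 0.37, 95% interval -0.79 to 0.14), Ndufs8 by 0.05 (SE 0.29, adjusted p = 0.93) and Ndufv1 by 0.15 (SE 0.16, adjusted p = 0.57). The chow ranges enclosed the HFD ranges for Ndufb7 and Ndufv1. Ndufs1 differed by -0.02 and Ndufs3 by 0.16, neither of them called, and the other assembly factors by -0.30 (Ndufaf5) to 0.15 (Ndufaf7). The count of subunits higher was 4 without the 129 chow library at ZT6 replicate 3, and the count lower was 3 without the 129 chow library at ZT2 replicate 1. In the shared range of GC slope (7 libraries on chow, 18 on HFD) the counts were 1 higher and 8 lower, with 11.7% and 8.87% of all genes. The mean slopes still differed there, at 0.31 on chow and 0.14 on HFD, and the chow libraries came from 4 of the 6 times.

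The test of the difference between the 2 diet effects called 18 of 36 subunits: the effect in 129 was below that in B6 for 16 and above it for 2, with 1609 of the 11287 genes tested called below and 2272 (20.1%) above. The 4 assembly factors called (Ndufaf1, Ndufaf2, Ndufaf4 and Ndufaf7) all had the effect in 129 above that in B6. The difference was -2.56 (SE 0.50, adjusted p = 0.00016) for Ndufb7, -1.72 (SE 0.33, adjusted p = 0.00013) for Ndufa13, -0.98 (SE 0.22, adjusted p = 0.00071) for Ndufv1 and 0.63 (SE 0.13, adjusted p = 0.00042) for Ndufab1. Over the 34 subunits it followed GC content with a rho of -0.76. With log2 Mir6236 as a covariate limma called 0 subunits and 0 assembly factors, and 0.124% of all genes. Mir6236 itself gave -6.45 (SE 0.72, adjusted p = 6.4e-09) in the same test without it as a covariate, so the covariate overlapped with the interaction.

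Between strains on chow the subunits again followed GC content, while a single gene stood apart. In 129 livers 18 of 36 subunits were higher than in B6 and 6 lower, with 25.4% and 27.5% of all genes called higher and lower. The median difference was 0.25 for subunits and -0.01 for all genes. Ndufb7 was higher by 1.90 (SE 0.35, adjusted p = 1.4e-05), Ndufa11 by 1.58 (SE 0.24, adjusted p = 3.6e-07), Ndufs7 by 1.37 (SE 0.23, adjusted p = 2.4e-06) and Ndufs8 by 1.16 (SE 0.29, adjusted p = 0.001). Across the 34 subunits the strain difference had a rho of 0.74 with GC content, and the GC slopes and Mir6236 of 129 chow were also above those of B6 chow. Of the assembly factors Ndufaf3 was higher (0.66) and Ndufaf4 (-0.30) and Ndufaf7 (-0.33) lower. In the shared range of GC slope (15 libraries of B6 and 7 of 129) 7 subunits were higher and 1 lower, with 9.46% and 9.68% of all genes. That range did not balance the strains. The mean slope was -0.28 in B6 and -0.50 in 129, against -0.43 and 0.10 over all libraries. The 129 libraries in it came from 4 of the 6 times. There 3 of 8 assembly factors were higher and 0 lower: Ndufaf1 (0.40), Ndufaf2 (0.48) and Ndufaf6 (0.39), named after their values were seen, and Ndufaf4 (0.09) and Ndufaf7 (0.21) had the other sign and were not called. Of the 28 members called over all libraries 10 had the other sign in the shared range, among them Ndufa13 (-0.51, not called), and 2 of these were called the other way, Ndufs4 (0.23, adjusted p = 0.042) and Ndufa4 (0.24, adjusted p = 0.027). With Mir6236 as a covariate 2 subunits were higher and 1 lower, with 4.97% and 7.84% of all genes. Mir6236 was itself higher in 129 chow, by 3.69 (SE 0.51, limma adjusted p = 3.7e-08), so this covariate overlapped with strain.

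On HFD the GC slopes of the strains overlapped more, and 3 of 36 subunits were higher in 129 and 8 lower, with 19.0% and 13.3% of all genes called. The median was -0.08 for subunits and 0.05 for all genes, and 1 assembly factor was called, Ndufaf2 at 0.56 (SE 0.16, adjusted p = 0.0051). No core subunit was called: the 7 differed by -0.46 (Ndufs8) to 0.14 (Ndufs3). In the shared range (18 and 14 libraries) the counts were 3 higher and 9 lower, with 20.3% and 15.7% of all genes. There were 5 members that kept their call in every alternative that included them and every fit without 1 library: Ndufs5, Ndufab1, Ndufa6, Ndufa7 and Ndufc2. Ndufab1 has no known GC content and was not in the fits with the GC and length trend removed.

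**Figure D3:**
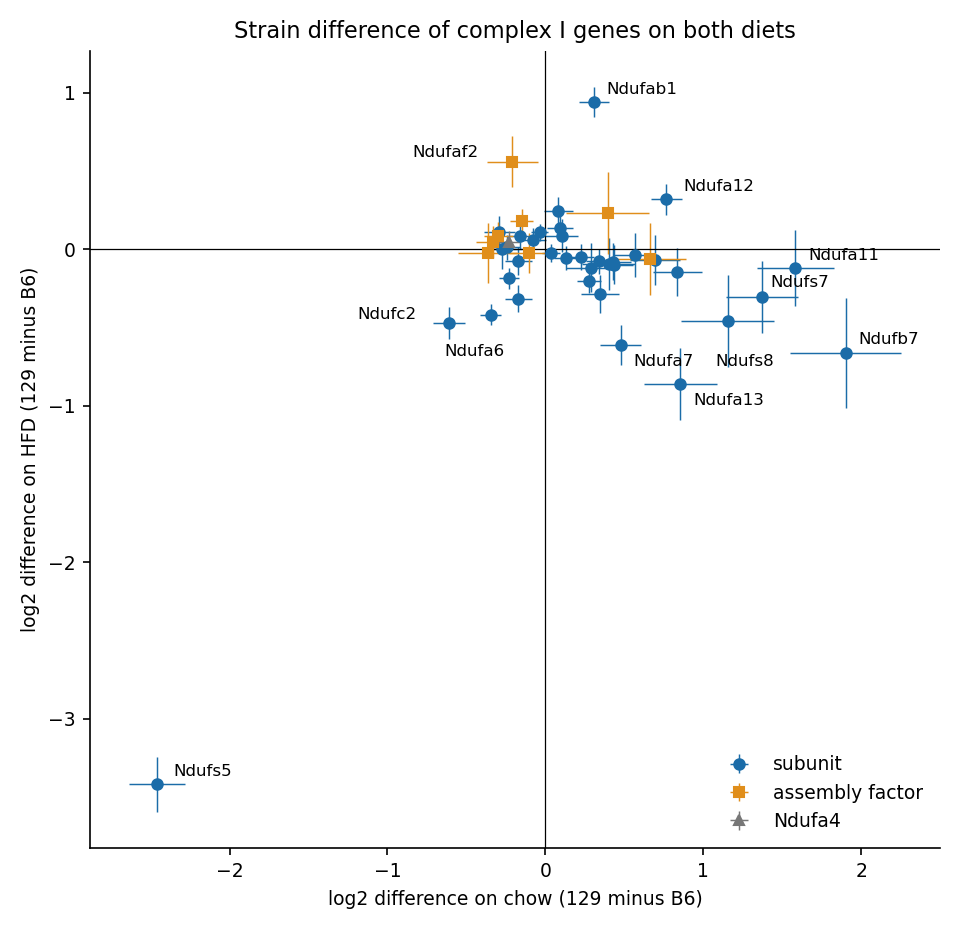
Difference between 129 and B6 livers on HFD (log2, y axis) against that on chow (log2, x axis) for the members tested, by role, with standard errors as bars. Ndufs5 lies alone at the lower left (-2.46 and -3.42), Ndufab1 and Ndufa12 are positive on both axes, and the high-GC subunits from Ndufb7 (1.90) spread along the chow axis.

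Ndufs5 was the one member whose levels did not overlap between strains. This small subunit of the membrane arm faces the intermembrane space and is held by disulfide bonds, and its gene lies at chr4:123712710-123718186 on the - strand (transcript NM_001030274, mm10). Levels were 38.6, 81.1 and 132 in B6 chow and 4.65, 13.3 and 33.4 in 129 chow, and on HFD 51.7, 142 and 191 in B6 and 5.49, 11.7 and 22.07 in 129. Every 129 library was below every B6 library of the same diet. The ranges of the strains were apart, in either direction, for 1.23% of all genes on chow and 1.83% on HFD. The difference was -2.46 on chow (SE 0.18, adjusted p = 2e-17), or 5.50-fold lower on the level + 1 scale with a 95% interval of 4.31 to 7.03. On HFD it was -3.42 (SE 0.18, adjusted p = 2.1e-23), or 10.7-fold lower (8.37 to 13.7). It kept its call in 17 of 17 alternatives on each diet, with values of -2.93 to -1.89 and -3.56 to -2.72. In B6 it rose on HFD by 0.70 (SE 0.18, adjusted p = 0.00066), and in 129 it differed by -0.26 (SE 0.18, adjusted p = 0.34). Reads were aligned to mm10, the B6 genome, and whether 129 reads of this gene mapped less was not tested.

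**Figure D4:**
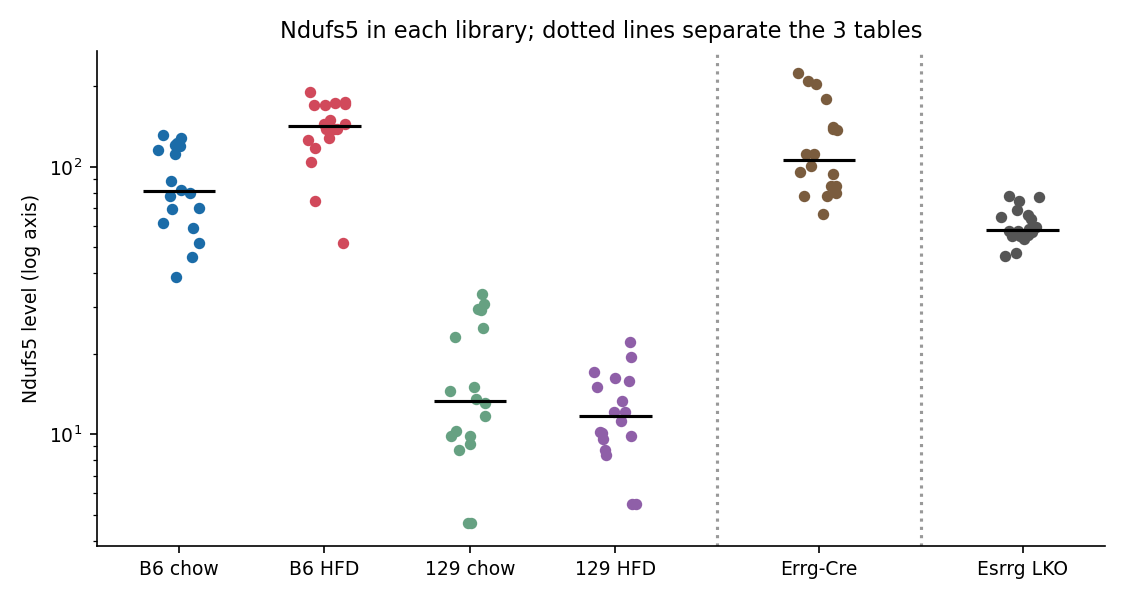
Level of Ndufs5 (deposited normalised read number, log axis) in each library of the 6 sets, with bars at the medians; Errg-Cre and Esrrg LKO come from tables that were normalised separately. The 129 chow and 129 HFD libraries (4.65 to 33.4) lie below all the others, and the Errg-Cre libraries, also labelled 129, lie at 66.5 to 224.

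Other subunits differed between strains by less, and Ndufab1, Ndufa12, Ndufc2, Ndufa6 and Ndufs4 were called in the same direction on both diets. Ndufab1 had medians of 133 and 177 on chow and of 79.5 and 143 on HFD in B6 and 129, higher in 129 by 0.31 (SE 0.10, adjusted p = 0.0058) and by 0.94 (SE 0.10, adjusted p = 4.9e-12). Ndufa12 had medians of 167 and 271 on chow and 176 and 203 on HFD, higher in 129 by 0.77 (SE 0.10, adjusted p = 6.7e-09) and 0.32 (SE 0.10, adjusted p = 0.009). Ndufc2, a membrane-arm subunit, was lower in 129 by 0.61 (SE 0.10, adjusted p = 2.6e-06) on chow and by 0.47 (SE 0.10, adjusted p = 0.0002) on HFD, at 6 of 6 times on each. Ndufa6, a matrix-arm subunit, was lower by 0.35 (SE 0.07, adjusted p = 3.5e-05) and 0.42 (SE 0.07, adjusted p = 1.5e-06). In the shared range of GC slope the chow differences were 0.72 for Ndufab1 (adjusted p = 9.6e-05) and 0.92 for Ndufa12 (adjusted p = 5.1e-06), but -0.0076 for Ndufc2 (adjusted p = 0.98) and -0.06 for Ndufa6 (adjusted p = 0.69), and neither Ndufc2 nor Ndufa6 was called on chow with Mir6236 as a covariate. Ndufa7 and Ndufa13 changed direction between diets, from 0.48 and 0.86 on chow to -0.61 and -0.86 on HFD, each past the threshold. Their chow calls were lost with the GC and length trend removed, with Mir6236 as a covariate and without replicate 2, and in the shared range the chow differences were 0.20 for Ndufa7 (adjusted p = 0.53) and -0.51 for Ndufa13 (adjusted p = 0.30). These 2 are among the subunits of high GC content that rose with diet in B6. Ndufab1, Ndufa12, Ndufc2, Ndufa6 and Ndufs4 were not called higher there.

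Time of day was tested with a 24 h cosine fitted within each set. In 129 chow 20 of 36 subunits and 5 of 8 assembly factors were called rhythmic, near the 47.8% of all genes called there. Limma called 0 of 36 in B6 chow (2 at an unadjusted p under 0.05, with 6.16% of all genes called), 0 in 129 HFD (0 unadjusted, 7.04%) and 1 in B6 HFD (Ndufab1, 4.08%). With libraries weighted by limma's array weights the count in B6 chow became 23, with 30.1% of all genes, and the counts of 129 HFD and Esrrg LKO were 0 and 1, with 32.0% and 8.42%. The change of rhythm with diet was called for 0 subunits in B6 (8 unadjusted, 0.0532% of all genes) and 0 in 129 (11 unadjusted, 1.26%), and with array weights for 6 and 21, with 6.60% and 37.7% of all genes. A difference in rhythm between the 129 diets was therefore not shown by the planned test.

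The rhythmic members of 129 chow fell into 2 phases that differed in GC content. There were 9 subunits that peaked between 4.41 and 7.85 h, with GC contents of 43.1 to 53.6% (median 48.6%) in the 8 that have a known one and amplitudes of 0.25 to 0.51 on the log2 scale. There were 11 that peaked between 16.5 and 17.9 h, with GC contents of 53.3 to 60.7% (median 56.7%) and amplitudes of 0.25 to 1.69, so the GC ranges of the phases overlapped between Ndufs5 and Ndufa6. Ndufb7 had the largest, with mean levels of 19.1 ± 16.5 at ZT2, 35.5 ± 44.9 at ZT6, 94.3 ± 52.1 at ZT10, 99.1 ± 59.1 at ZT14, 200.1 ± 61.2 at ZT18 and 153 ± 27.3 at ZT22 (SD, n = 3 each). Its lowest mean was at ZT2 and its highest at ZT18, with an amplitude of 1.69 (limma F test, adjusted p = 0.0011). Ndufa13 (1.28), Ndufa11 (0.97) and Ndufs8 (0.91) followed, all peaking between 16.6 and 17.4 h, and the core subunits Ndufs7 (0.74) and Ndufv1 (0.70) peaked with them. The core subunit Ndufs1 peaked at 7.5 h with an amplitude of 0.29. Ndufaf1, Ndufaf2, Ndufaf5 and Ndufaf7 peaked between 4.41 and 7.25 h, and Ndufaf8, the assembly factor called with the highest GC content (55.4%), at 16.1 h.

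The GC slope of the 129 chow libraries also differed between the times, though a rhythm of it was not tested. From ZT2 to ZT10 its median over 9 libraries was -0.10 and that of Mir6236 was 167. From ZT14 to ZT22 the medians were 0.52 and 45004. Mir6236 itself was called rhythmic in 129 chow, with an amplitude of 4.55 on the log2 scale and a peak at 17.8 h (limma F test, adjusted p = 1.8e-07). Libraries of 1 time were spread widely: the slope ran from -0.99 to 0.37 at ZT6 and from -0.31 to 0.32 at ZT14. Its mean was 0.27 at ZT10 and 0.09 at ZT14. With Mir6236 as a covariate, which thus overlapped with time of day, 0 subunits were rhythmic in 129 chow, against 14.8% of all genes. With the GC and length trend removed 13 of the 34 subunits with a known GC content were, near the 35.6% of all genes in that fit. Subunits without one could not be called there. The count was 7 without replicate 2 at all times and 13 without replicate 1, and the part of GC slope and Mir6236 in the rhythm was not tested.

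**Figure D5:**
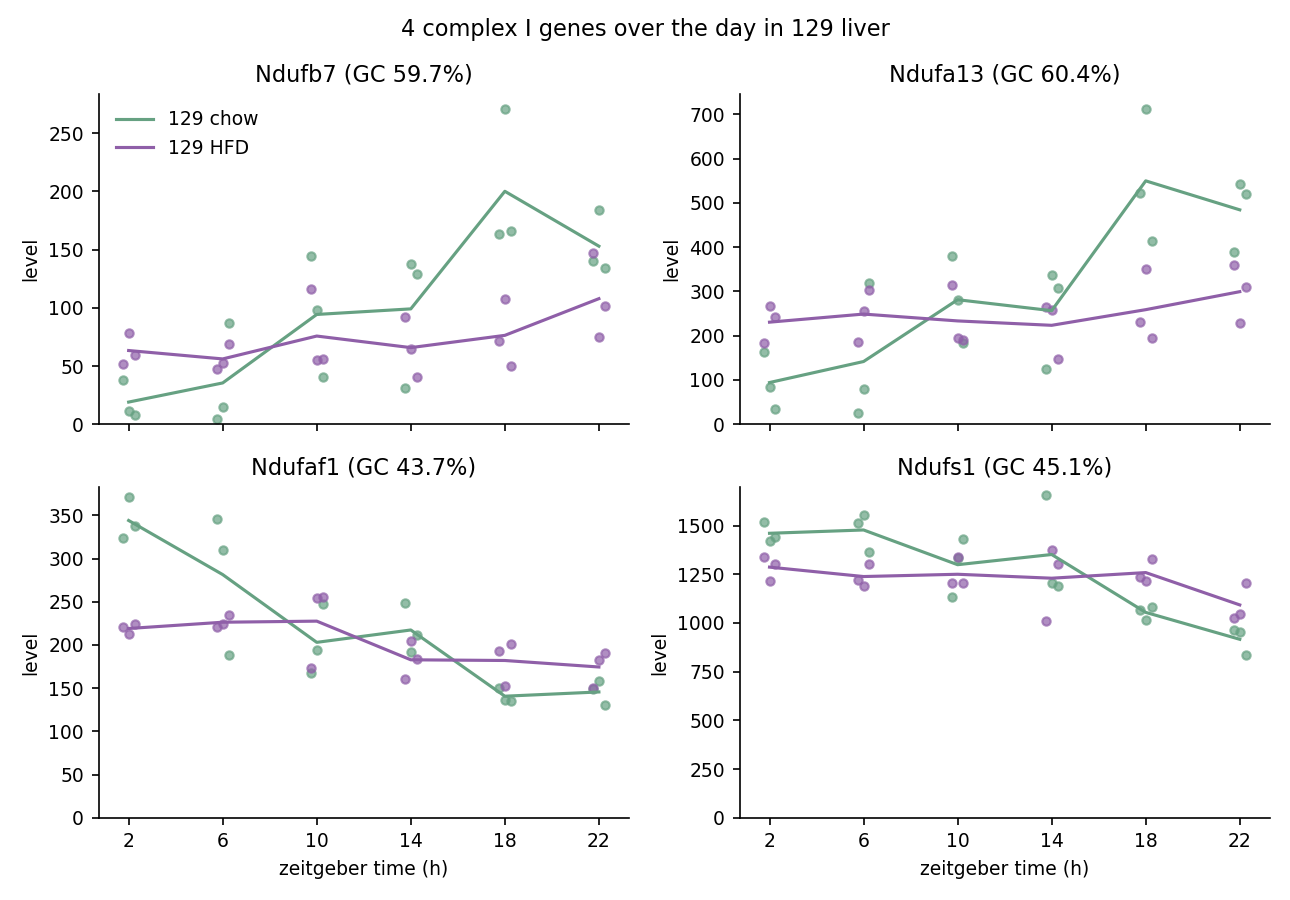
Levels of Ndufb7, Ndufa13, Ndufaf1 and Ndufs1 (deposited normalised read number, y axis, from 0) over the 6 times (zeitgeber time in hours, x axis) in 129 chow and 129 HFD livers; points are the 3 libraries a time and lines join their means. On chow Ndufb7 and Ndufa13, with GC contents of 59.7% and 60.4%, are highest at ZT18, while Ndufaf1 and Ndufs1, at 43.7% and 45.1%, are highest at ZT2 or ZT6.

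Errg-Cre and Esrrg LKO livers each came in a table of their own, with no control set compared here, so they are described within themselves. In Errg-Cre 8 of 36 subunits and 1 assembly factor (Ndufaf2) were called rhythmic, against 17.9% of all genes, with amplitudes of 0.16 to 0.26 and peaks between 14.03 and 20.3 h. The largest were Ndufc2 (0.26), Ndufab1 (0.24), Ndufa5 (0.22) and Ndufv2 (0.21). The count was 3 without the library at ZT6 replicate 1, and 1 with the GC and length trend removed. In Esrrg LKO limma called 0 subunits (3 unadjusted, 6.09% of all genes) and 1 assembly factor, Ndufaf4, with an amplitude of 0.31 and a peak at 10.7 h. The library at ZT14 replicate 1 of Esrrg LKO had Kupffer cell markers summing to 14298 and blood markers to 13397, and without it 1 subunit was rhythmic. These sets varied less than the chow sets: the median SD of a subunit within a time was 0.14 in Errg-Cre and 0.16 in Esrrg LKO, against 0.34 in both chow sets, 0.32 in B6 on HFD and 0.17 in 129 on HFD.

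Esrrg itself, the receptor that the knockout label names, had levels of 8.23, 25.9 and 62.0 in Errg-Cre and 7.64, 16.4 and 39.4 in Esrrg LKO, and 0 to 59.4 in the wild-type sets. Counts per transcript do not show which exons the reads came from, so these levels do not check the deletion. In the wild-type table Esrrg was higher on HFD by 0.92 (SE 0.26, adjusted p = 0.0021) in B6 and 0.78 (SE 0.26, adjusted p = 0.028) in 129. Esrra was higher on HFD by 1.62 (SE 0.20, adjusted p = 2.6e-09) in B6 and differed by -0.49 (SE 0.20, adjusted p = 0.085) in 129. Ppargc1a was lower by 0.57 (SE 0.14, adjusted p = 0.00048) in B6 and by 0.48 (SE 0.14, adjusted p = 0.01) in 129. On chow Esrra was also higher in 129 than in B6, by 1.57 (SE 0.20, adjusted p = 6.9e-09). GC slope and Mir6236 were likewise higher in B6 HFD and 129 chow than in B6 chow. Their part in the differences of Esrra was not tested.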

How the data were processed

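Liver RNA was sequenced in 6 sets of 18 libraries. The deposited signal values are read numbers per RefSeq transcript, quantile-normalised by the authors in 3 separate tables, per the file headers. STAR, HOMER and mm10 are named in the submitters' processing notes, with no versions. Depth is unknown, because sorted values are identical between the libraries of a table, and the precision of single values therefore cannot be given. Another 18 columns had no matching label and were not used here. Levels were tested within a table only, and levels set beside those of another table carry no test.

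The highest-mean transcript stood for a symbol. limma 3.58.1 (R 4.3.3) was fitted to log2(level + 1), with genes of mean level at least 10, 1 mean for each strain, diet and time, a mean-variance trend, and Benjamini-Hochberg adjustment over 11287 genes in the wild-type table, 11622 in the Errg-Cre table and 11946 in the Esrrg LKO table. Rhythms were F tests of 24 h cosine terms. On simulated data with 11287 genes and 200 changed, the diet test in B6 recovered 60% of genes changed by 0.5 log2 and 90% of those changed by 1, and the rhythm test in 129 chow 54% and 86%. The simulated noise was independent for each gene and library, with no GC slope or Mir6236 shift shared by a library. These rates therefore do not describe the tests where libraries share such shifts. GC content came from GENCODE vM21 transcripts matched by RefSeq accession, and promoters from RefSeq on GRCm38.p6.

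Members and lists were chosen with earlier results of these data known. The values of 1 member are not reported here, though counts include it. Otherwise the text names the core subunits, the assembly factors, and up to 4 members with the largest rise, fall or amplitude past the threshold of each test, with up to 4 other complex I assembly genes per contrast. Exceptions named after their values were seen are stated, and subunits beyond these are given by range or where a call held across settings. Marker lists covered hepatocytes, Kupffer, endothelial, stellate, bile duct, blood, muscle, fat, kidney and pancreatic cells. Over the wild-type libraries the summed levels ran from 1022 to 2218 for endothelial, 1619 to 3448 for stellate, 369 to 4490 for Kupffer, 221 to 1268 for blood and 7.20 to 199.8 for pancreatic markers.

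Alternatives were the pseudocount, the filter, the transcript rule, GC and length trend removal, a Mir6236 covariate, a replicate block, array weights, no trend, sets fitted apart, times as levels and leaving out libraries. Trend removal left out genes without a known GC content. Replicate numbers did not pair libraries: correlations of deviations of same-numbered libraries averaged 0.04, -0.02, 0.02 and -0.02 in the 4 contrasts.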

Additional observations from a re-analysis of the deposited data

Results flagged for a closer look

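The diet effect differed between strains, by the interaction term of the limma fit, in 23 members, of which 22 are given here. A negative value means that the effect of HFD in 129 was below that in B6. Of the core subunits, Ndufs7 gave -1.68, Ndufs8 -1.61 and Ndufv1 -0.98 on the log2 scale. Of the matrix-arm accessory subunits, Ndufa7 gave -1.09, Ndufv3 -0.60, Ndufs6 -0.53 and Ndufa12 -0.45. Of the membrane-arm accessory subunits, Ndufb7 gave -2.56, Ndufa13 -1.72, Ndufa11 -1.70, Ndufs5 -0.96, Ndufa8 -0.76, Ndufb8 -0.51, Ndufb9 -0.48 and Ndufb10 -0.42, and Ndufb6 gave 0.40. Ndufab1, the acyl carrier protein of both arms, gave 0.63. The assembly factors Ndufaf2, Ndufaf4, Ndufaf7 and Ndufaf1 gave 0.77, 0.38, 0.38 and 0.33, and the complex IV subunit Ndufa4 gave 0.28.

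Of the 11287 genes tested, 2272 were called positive and 1609 negative. None of the 23 kept its call in every alternative, and with log2 Mir6236 as a covariate no subunit and no assembly factor was called. Mir6236 itself gave an interaction of -6.45, so that covariate overlapped with the term tested.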

How the results depend on the processing

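Counts are given as subunits higher, subunits lower and assembly factors called. With Mir6236 as a covariate they became 1, 1 and 0 for diet in B6, 4 higher for diet in 129, 2, 1 and 0 for strain on chow, 5 lower and 0 assembly factors for strain on HFD, and 0, 0 and 0 for the interaction; rhythmic subunits became 0 in B6 HFD and 129 chow and 4 in Errg-Cre. With the covariate and the GC and length trend removed they were 1, 1 and 0 for diet in B6, 2 higher and 3 assembly factors for diet in 129, 1, 1 and 0 for strain on chow, 1 higher for strain on HFD and 0, 0 and 0 for the interaction, with 0, 1 and 0 rhythmic in B6 HFD, 129 chow and Errg-Cre. With the trend alone removed, 3, 1, 2 and 1 assembly factors were called for diet in 129, strain on chow, strain on HFD and the interaction, and 0, 13 and 1 subunits were rhythmic in B6 HFD, 129 chow and Errg-Cre. Adding the replicate block to the trend removal gave the same values. In the shared range of GC slope the counts were 0, 1 and 0 for diet in B6, and 7 and 1 subunits for strain on chow. That range, the combined fits and the fits without B6 chow ZT14 replicate 3 or B6 HFD ZT22 replicate 3 were chosen after seeing the data. Over all genes, the Mir6236 covariate gave 13.9% higher for diet in 129 and 12.8% lower for strain on HFD. It gave 4.72%, 14.8% and 7.82% rhythmic in B6 HFD, 129 chow and Errg-Cre. Trend removal alone called 21.5%, 39.5%, 34.8% and 17.7% for diet in 129, strain on chow, strain on HFD and the interaction. It called 5.81%, 35.6% and 12.2% rhythmic in B6 HFD, 129 chow and Errg-Cre. Mir6236 itself differed with diet in B6, between strains and in the interaction, so a call lost with it as a covariate cannot separate these. The cause of these shifts was not tested.

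With array weights there were 10 subunits higher and 3 assembly factors for diet in 129, 11 lower and 5 for strain on chow, 15 lower and 2 for strain on HFD and 5 higher for the interaction. Over all genes 26.3% were higher for diet in 129 and 32.5% higher for the interaction. For strain on chow and on HFD 34.1% and 23.5% were lower. In either direction 44.6%, 63.8% and 54.5% were called for diet in 129, strain on chow and strain on HFD. Rhythmic subunits were then 23 in B6 chow, 0 in B6 HFD, 14 in Errg-Cre and 1 in Esrrg LKO, and rhythm changes 6 in B6 and 21 in 129. Of all genes 30.1%, 7.6%, 28.1% and 8.42% were rhythmic in these sets, and 6.6% and 37.7% changed rhythm in B6 and 129. With times as levels 16 were rhythmic in B6 chow and 3 in B6 HFD, and the rhythm changed in 4 in B6. For diet in 129, 2 were higher with a filter of 50 and 3 with the 2 sets fitted alone, which also gave 2 assembly factors for strain on HFD. Without the 3 libraries with most genes under 1, 3 were higher for diet in 129 and the rhythm changed in 1 in 129. The 1 rhythmic subunit of B6 HFD became 0 with a pseudocount of 10, with no filter, with the mean of all transcripts and without those 3 libraries. With no filter 5 were rhythmic in Errg-Cre, with 5.34% of all genes. Shares of all genes are not given beside the other counts of this paragraph, which are not read as results about the members.

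Leaving out replicates or single libraries gave ranges of 3 to 7 lower and 4 to 7 assembly factors for diet in B6, 0 to 4 higher, 1 to 8 lower and 0 to 1 assembly factors for diet in 129, and 1 to 4 assembly factors for strain on chow. For strain on HFD they gave 1 to 3 higher, 5 to 9 lower and 1 to 2 assembly factors, and for the interaction 1 to 3 higher, 7 to 19 lower and 0 to 5 assembly factors. Rhythmic subunits ranged from 0 to 1 in B6 chow, 0 to 2 in B6 HFD, 7 to 22 in 129 chow, 0 to 10 in Errg-Cre and 0 to 1 in Esrrg LKO, and rhythm changes in 129 from 0 to 3. The single libraries behind these ends were 129 chow ZT6 replicate 3 and ZT2 replicate 1, B6 HFD ZT6 replicate 3, ZT10 replicate 1 and ZT2 replicate 2, B6 chow ZT18 replicate 2, Errg-Cre ZT6 replicate 1 and Esrrg LKO ZT14 replicate 1. Shares of all genes are not given for these fits, so the ranges do not set the members against all genes.

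The replicate block gave 18, 7 and 7 for diet in B6, 1, 5 and 1 for diet in 129, 18, 6 and 3 for strain on chow, 3, 8 and 1 for strain on HFD and 2, 16 and 4 for the interaction, with 20 subunits rhythmic in 129 chow and 6 in Errg-Cre. Same-numbered libraries correlated above 0.1 in 3, 2, 5 and 1 of 18 pairs in the 4 contrasts, so the numbers were not taken to pair them.

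Single genes turned direction in some settings. In the shared range 10 of the 32 members called for diet in B6 and 10 of the 28 called for strain on chow had the other sign, among them members beyond those given here. For diet in B6, Mir6236 as a covariate gave Ndufaf5 0.14 and Ndufs1 0.0215, and with the trend removed as well Ndufaf5 0.21, Ndufs1 0.0822 and Ndufs7 -0.0738. Trend removal, with or without the block, gave Ndufs1 0.11 and Ndufv2 0.13. The shared range gave Ndufs7 -0.18 and Ndufv1 -0.0122. For strain on chow, Ndufaf4 was 0.15 with the trend removed, with or without the block, 0.10 with the covariate as well and 0.0898 in the shared range. Ndufaf7 was 0.0135 with both and 0.21 in the shared range, and Ndufs8 -0.0418 in the shared range. For the interaction, the covariate gave Ndufa13 0.18, Ndufaf4 -0.0763, Ndufaf7 -0.0546, Ndufb6 -0.19, Ndufb7 0.0504, Ndufs8 0.30 and Ndufv1 0.0732. With both it gave Ndufa13 0.006, Ndufaf7 -0.17, Ndufb6 -0.36 and Ndufs8 0.0939. Trend removal, with or without the block, gave Ndufaf1 -0.0094 and Ndufaf4 -0.0557.

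Quantile normalisation leaves no depth to judge low values such as those of Ndufaf8 and Ndufs5 in 129 livers.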

Other observations

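Levels of the set labelled Errg-Cre, of strain 129, and of Esrrg LKO stand here beside the wild-type sets, though each of their tables was normalised separately and no test was made. Ndufs5, which was at 5.49 to 22.07 in the 129 HFD livers and at 51.7 to 191 in the B6 HFD livers, was at 66.5 to 224 in Errg-Cre and at 46.3 to 77.7 in Esrrg LKO. Nnt, the mitochondrial transhydrogenase that is known to be truncated in C57BL/6J, was chosen after its values were seen. Its medians were 259 and 344 in B6 chow and HFD, 720 and 734 in 129 chow and HFD, 949 in Errg-Cre and 335 in Esrrg LKO. Ndufab1 had a median of 271 in Errg-Cre and 46.5 in Esrrg LKO, against 143 in 129 HFD and 79.5 in B6 HFD. Ndufa12 had medians of 290 and 114, against 203 and 176. Its levels in Errg-Cre and Esrrg LKO were counted from another transcript than in the wild-type sets, so these medians are not of the same transcript.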
